A study of Mus musculus with 4 samples.

Results

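The RNAs described here are the messenger RNAs and transfer RNAs encoded by the mitochondrial genome of the mouse. They were taken by gene name from the count tables, as the 13 protein-coding genes (ND1 to ND6, ND4L, COX1 to COX3, ATP6, ATP8 and CYTB) and the 22 tRNA genes (Trn followed by the 1-letter code of the amino acid). All 35 were present among the 49997 gene rows, and 30 of them had at least 1 count in some library. The cells were iMOPs, an immortalized line of mouse otic progenitors, wild-type in all libraries. The series set iMOP-derived neurons against proliferating iMOPs. The neuron libraries came from cells kept in Neurobasal medium supplemented with 1X N21 and 2 mM L-glutamine, to which K03861, a compound that inhibits CDK2, was added at 1 µM. The proliferating libraries came from cells kept in DMEM/F12 with 1X N21, the growth factor bFGF at 20 ng/ml and the antibiotic carbenicillin at 25 µg/ml. Each group had 2 libraries, numbered 1 and 2, all from 1 cell line. The labels do not state that the numbers mark separate cultures, so the p-values measure only the spread between these samples, which may be technical.

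Mitochondrial DNA is a compact circle with genes on both strands. Each strand is copied into a long RNA that is cut mainly at the tRNAs lying between the other genes, and the pieces become mRNAs, tRNAs and rRNAs. By convention the genes here called heavy-strand genes are those that read in the forward direction of the reference sequence, and the light-strand genes, ND6 and 8 tRNAs, read in the opposite direction. The mRNAs encode core subunits of the respiratory chain and of ATP synthase, and the tRNAs serve the mitochondrial ribosome.

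The libraries differed widely in depth and in content. Total counts were 8368169 and 27424909 in neuron 2 and neuron 1, against 32913243 and 3150354 in proliferating 2 and proliferating 1. After 7 rRNA and rRNA-like rows were set aside, which held from 88.2% to 98.1% of the counts, 617872 and 3241915 counts remained in neuron 2 and neuron 1, against 614465 and 292302 in proliferating 2 and proliferating 1. CPM values are scaled to these remaining counts. A count of 0 allows, at 3 counts, up to 4.86, 0.925, 4.88 and 10.3 CPM in neuron 2, neuron 1, proliferating 2 and proliferating 1. By their sums, the marker lists of dividing cells and of neurons ran against the labels, and that of otic progenitors ran with them. The 6 genes of dividing cells summed to 3451 and 2003 CPM in neuron 2 and neuron 1, against 701 and 229 CPM in proliferating 2 and proliferating 1. The 10 neuron markers summed to 1008 and 1399 CPM in neuron 2 and neuron 1, against 1826 and 2217 CPM in proliferating 2 and proliferating 1. The 8 otic progenitor markers summed to 1486 and 2447 CPM in neuron 2 and neuron 1, against 7398 and 3188 CPM in proliferating 2 and proliferating 1. Vim alone had 6153 CPM in proliferating 2. Single genes did not all follow their list, as Pcna, Dcx and Rbfox3 overlapped between the groups. The 8 glia markers summed to 303 and 250 CPM in neuron 2 and neuron 1, against 386 and 783 CPM in proliferating 2 and proliferating 1. The 5 immune and 5 mesenchyme markers each summed to at most 13.7 CPM in any library, with Cx3cr1, Col1a2 and Lum at 0 in all 4. Since the lists differ in direction, the group names are used only as the names on the labels. In bulk RNA, fewer cells of a kind and less RNA per cell cannot be told apart.

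Among the mRNAs, position on the mitochondrial genome separated high from low counts in all 4 libraries. COX2, ATP8, ATP6, COX3, ND3 and ND4L lie in 1 unbroken stretch, from 6390 to 11042 on chromosome M in mm10. The tRNA genes TrnS1, TrnD, TrnK, TrnG and TrnR lie in it too. These 11 genes held 386 counts over all libraries, which is 0.157% of the counts of the 35 genes. The 22 genes wholly outside the stretch held 166145 counts, or 67.4%. COX1 and ND4, which reach into it from either side, held the other 79973 counts, or 32.4%. Per kb of gene, the 6 mRNAs inside had 50.4 and 19.7 counts in neuron 2 and neuron 1, against 52.4 and 4.0 in proliferating 2 and proliferating 1. The 5 mRNAs outside had 11239 and 9527 counts per kb in neuron 2 and neuron 1, against 8415 and 702 in proliferating 2 and proliferating 1. The mRNAs outside the stretch thus had from 161 to 484 times as many counts per kb as those inside it, in each library taken by itself. Among the tRNAs the split was less clean. The 5 inside had 7 counts in all, all of TrnS1, and the 17 outside had 2326, but TrnF, outside, was at 0 in all 4 libraries, and TrnQ had from 0 to 2 counts. The limits of the stretch are the ends of the nuclear copy described next, and they were set after these values were seen. The contrast is thus a description.

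**Figure D1:**
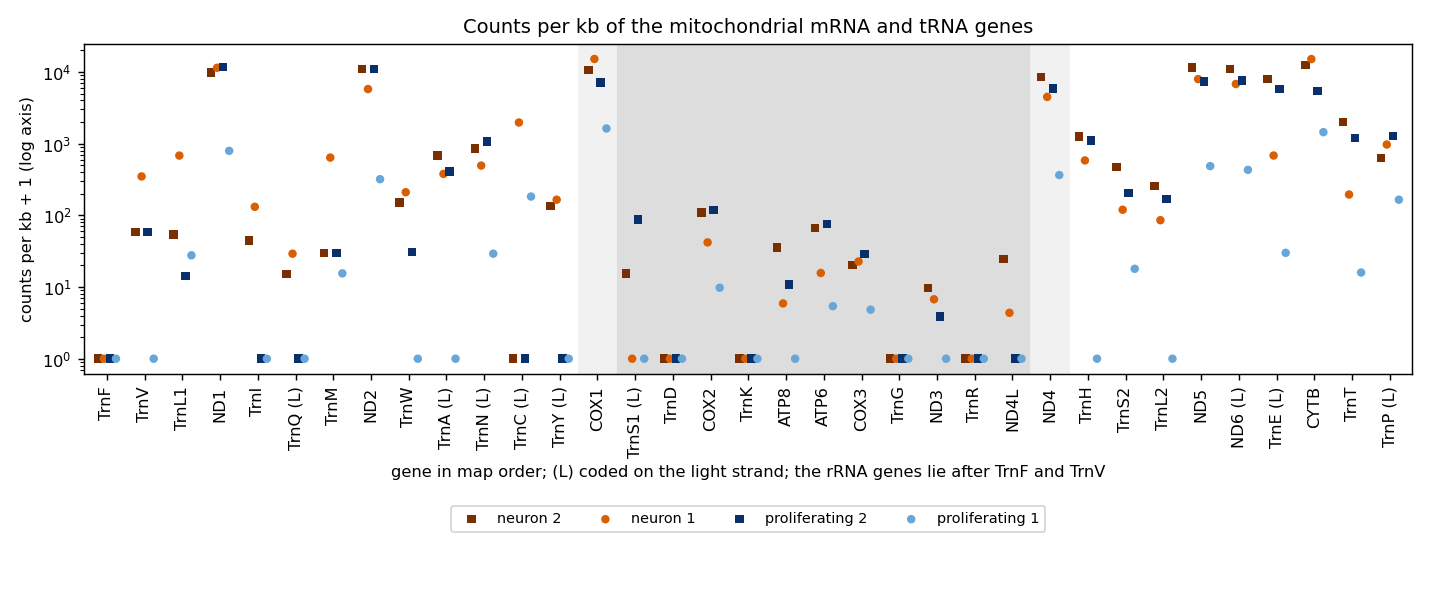
Counts per kb plus 1, on a log axis, for the 35 genes in map order; squares are libraries numbered 2 and circles libraries numbered 1, brown and orange for neuron, dark and light blue for proliferating. The dark band covers the 11 genes inside the stretch and the light bands mark COX1 and ND4, which lie partly in it. Before 1 is added, the highest value of the dark band is 118, for COX2 in proliferating 2. The 5 mRNAs outside all bands lie between 318 and 15114.

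The nuclear genome holds an annotated copy of parts of this stretch, and the sequence between those parts was not compared. Since the ends of the copy set the limits used above, their match is no separate result. GENCODE M21 annotates 7 pseudogenes side by side on the minus strand of chromosome 1, from 24611535 to 24616197 in mm10, in the order of COX1, COX2, ATP6, COX3, ND3, ND4L and ND4. Of the 6 gaps between neighbouring copies, 5 had the same length as between the mitochondrial genes. Gm28661 matched COX2 at 100% of 681 bases, Gm10925 matched ATP6 at 100% of 678, Gm28437 matched COX3 at 100% of 783 and Gm10222 matched ND4L at 100% of 294. Gm28438 matched ND3 at 99.7% of 345 bases, Gm29216 matched the last 483 bases of COX1 at 99.8%, and Gm28439 matched the first 876 bases of ND4 at 100%. The 2 pairs of 60-base stretches that follow show what this means for a read. ND3, inside the stretch, cannot be told from its copy there, while CYTB, outside it, differs from its closest nuclear transcript, the pseudogene Gm11410, at 4 bases, printed in capitals. The stretches are chrM:9603-9662 on the plus strand with chr1:24612916-24612975 on the minus strand, and chrM:14687-14746 with chr4:80004531-80004590, both on the plus strand, from GENCODE M21 transcripts on mm10.
ND3: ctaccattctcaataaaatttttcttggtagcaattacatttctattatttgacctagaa
Gm28438: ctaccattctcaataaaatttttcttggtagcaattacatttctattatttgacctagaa
CYTB: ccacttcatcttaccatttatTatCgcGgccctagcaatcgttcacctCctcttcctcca
Gm11410: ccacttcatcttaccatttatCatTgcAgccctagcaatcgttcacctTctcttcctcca

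Cut into windows of 50 bases, COX2 had 100% of its windows in a nuclear transcript, COX3 99.9%, ATP6 99.5%, ND4L 98.8% and ND3 98.0%. The shares were 62.2% for ND4 and 51.1% for COX1, 8.19% for ND2 and 7.61% for ND5, and 0% for ND1, ND6 and CYTB. ATP8, which lies between the copied COX2 and ATP6, also had 0%. So did TrnS1, TrnD, TrnK, TrnG and TrnR, and the chromosome 1 sequence between the annotated pseudogenes was not compared with them. Of the annotated transcripts of the chromosome 1 copy, Gm10925 covers the last 43 bases of ATP8, fewer than a window holds, and the rest of its place in that copy was not analysed here. With windows of 36 bases, an alternative added after the data were seen, ATP8 had 4.73% in a nuclear transcript. Outside the stretch, CYTB then had 3.07%, ND6 2.69%, ND5 14.0%, ND2 11.1% and ND1 0%, so this value did not set ATP8 apart. Of the 7 pseudogenes, 2 had a row in the count table. Gm10925, the copy of ATP6, had 73 and 9 counts in neuron 2 and neuron 1, against 95 and 4 in proliferating 2 and proliferating 1. Gm10222, the copy of ND4L, had 37 and 11 counts in neuron 2 and neuron 1, against 21 and 1 in proliferating 2 and proliferating 1. For both genes the copy had at least as many counts as the mitochondrial gene in 7 of the 8 pairs of values, the exception being ATP6 in neuron 1, with 10 counts. How reads that match equally well in 2 places were counted is not given in the sources used here, and the part of the nuclear copy in the low counts was not tested. The levels of the 11 genes inside the stretch, and those of COX1 and ND4, are therefore uncertain.

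As a class the mRNAs stood apart by library number, while the groups overlapped. The 13 mRNAs held 14.6% of the counts outside rRNA in neuron 2 (95% Wilson interval 14.5 to 14.7) and 2.53% in neuron 1 (2.51 to 2.54), against 10.6% in proliferating 2 (10.6 to 10.7) and 2.35% in proliferating 1 (2.30 to 2.41). These intervals, like the limits for a count of 0, cover counting error only. Both libraries numbered 2 were above both numbered 1. On the log2 scale the share was 2.35 higher in the libraries numbered 2, at 2.53 within the neuron pair and 2.18 within the proliferating pair. It was 0.28 higher in neuron than in proliferating libraries (exact two-sided permutation test, p = 0.667). With 2 libraries against 2 no exact permutation test can go below p = 0.333, which is what the number comparison gave.

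The order of the libraries rests on which counts are in the denominator. As a share of all counts with rRNA included, the mRNAs held 1.08% and 0.299% in neuron 2 and neuron 1, against 0.199% and 0.218% in proliferating 2 and proliferating 1. On that basis proliferating 2, where rRNA took 98.1% of the counts, was the lowest library, both neuron libraries were above both proliferating libraries, the number difference in log2 share was 0.86 in place of 2.35, and the group difference was 1.45 in place of 0.28. Set against the rRNA of mitochondria alone (mt-Rnr1 and mt-Rnr2), the mRNAs made up 8.45% and 10.4% of the summed mRNA and mitochondrial rRNA counts in neuron 2 and neuron 1, against 6.12% and 7.66% in proliferating 2 and proliferating 1. Here too both neuron libraries were higher, by 2.52 percentage points on average, with p = 0.333 in the exact permutation test, the smallest it can give. Without neuron 1 this difference was 1.56 points, and without neuron 2 it was 3.49. The rRNA was depleted with a kit before sequencing, and its remaining share differed between libraries, so the part of depletion in these ratios was not tested.

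**Figure D2:**
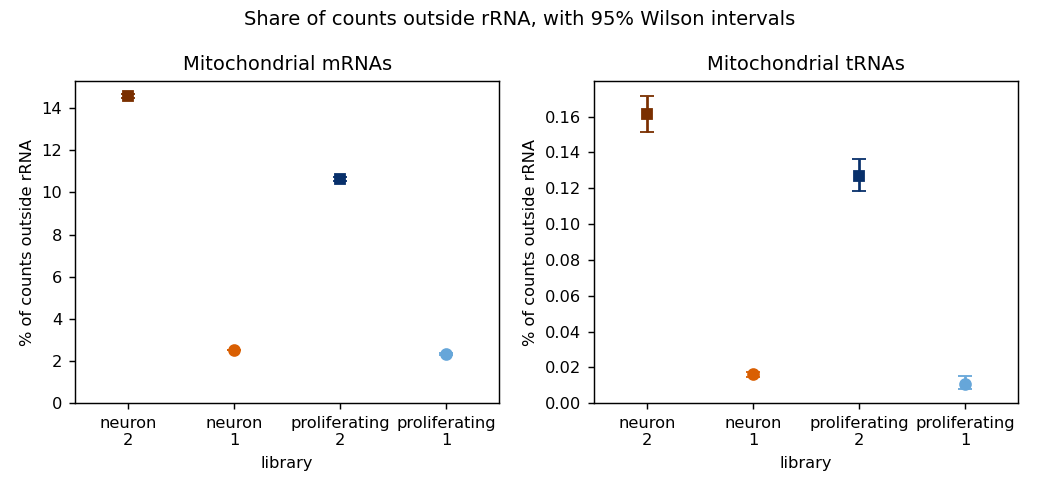
Share of the counts outside rRNA, in percent, held by the 13 mitochondrial mRNAs (left) and the 22 mitochondrial tRNAs (right) in each library, with 95% Wilson intervals that cover counting error only. In both panels neuron 2 and proliferating 2 stand above neuron 1 and proliferating 1.

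Between neuron and proliferating libraries no mitochondrial RNA passed the test of edgeR (quasi-likelihood, Benjamini-Hochberg adjusted p under 0.05 over 9009 genes). Of the 35 genes, 19 had enough counts to be tested, 10 mRNAs and 9 tRNAs, and 0 were higher and 0 lower, where 0% of all tested genes were called in either direction. None of the 19 had an unadjusted p under 0.05, against 97 of all tested genes, and DESeq2 also called 0 of 30. Log2 fold changes ran from -0.93 for TrnP, the tRNA for proline (SE 1.14), to 1.13 for TrnS2, the tRNA for serine that reads AGY codons (SE 1.66). CYTB, the subunit of complex III and the mRNA with the highest value, was at 1.04 (SE 1.54). With 2 libraries in each group these standard errors allow differences of several-fold in either direction, so the data do not show that the groups had the same levels. With the replicate number in the model, the call rate over all genes was 0.966%, with 0.644% higher and 0.322% lower, and again 0 of the 19 were called.

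Between libraries numbered 2 and libraries numbered 1, with group also in the model, 18 of the 19 tested genes were higher and 1 was lower, where 33.1% of all tested genes were called, 12.7% higher and 20.3% lower. This count is no support for a direction, since the filter on low counts fixed part of it. Of the 19 genes, 9 passed the filter, at 16.2 CPM, only through the libraries numbered 2, and 1, TrnC, only through those numbered 1. These 9 were ATP6, COX3, TrnA, TrnE, TrnH, TrnL2, TrnN, TrnS2 and TrnT. Their calls and that of TrnC are no support for a direction. The other 9, COX2 and TrnP with the 7 mRNAs well counted in every library, passed through libraries of both numbers. Without the filter, 17 of 30 genes with any count were higher and 1 was lower, beside 571 higher and 1330 lower of all 23761 genes. The 4 libraries share nothing in their labels that says what the numbers stand for. The calls moved with single libraries. With number alone in the model, as the loss of a library requires, 16 genes were called higher and 1 lower over all 4 libraries. Over all 9009 tested genes that model called 646 higher and 1587 lower. In that model fewer genes were called without neuron 1, the deepest library outside rRNA, or without proliferating 1, the shallowest. This held both for the mitochondrial genes and over all tested genes. The libraries numbered 2 also held less of 8 small nuclear-encoded RNAs, among them Rpph1, Terc and Rn7s1, at 0.355% and 0.412% of counts outside rRNA in neuron 2 and proliferating 2, against 2.46% and 4.92% in neuron 1 and proliferating 1. The part of that difference in library content in the mitochondrial values was not tested.

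Of the 7 subunits of complex I, which takes electrons from NADH, ND1, ND2, ND4, ND5 and ND6 were well counted. ND2 (3914 to 4951) had the largest difference among these, with 18318 and 18574 CPM in neuron 2 and proliferating 2, against 1847 and 1129 CPM in neuron 1 and proliferating 1. The libraries with the same number were alike and the numbers did not overlap. Its log2 fold change, number 2 over number 1, was 4.08 (SE 0.72, edgeR adjusted p = 4.58e-06). ND4 (10167 to 11544) had 19020 and 13132 CPM in neuron 2 and proliferating 2, against 1906 and 1714 CPM in neuron 1 and proliferating 1, and was 3.54 higher on the log2 scale (SE 0.70). ND5 (11742 to 13565) had 33797 and 21915 CPM in neuron 2 and proliferating 2, against 4470 and 3024 CPM in neuron 1 and proliferating 1, and was 3.30 higher (SE 0.71). ND1 (2751 to 3707) was 2.90 higher (SE 0.68). All of these lay well above the median of all tested genes, which was 0.10. ND2 lost its call in 3 of 14 other settings, and ND1, ND4, ND5 and ND6 in 4 each. On log2(RPKM + 0.1), whose totals include rRNA, none of the 5 was called, at differences from 1.00 for ND1 to 2.18 for ND2 beside a median of -1.43 over all genes. Without proliferating 1 none of the 5 was called either, and without neuron 1 ND2 alone was.

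ND6 (13552 to 14070) is the only mRNA coded on the light strand. It had 9245 and 6427 CPM in neuron 2 and proliferating 2, against 1087 and 763 CPM in neuron 1 and proliferating 1, and was 3.49 higher on the log2 scale (SE 0.68, edgeR adjusted p = 2.96e-05). Its share of all mRNA counts was 6.34% and 4.30% in neuron 2 and neuron 1, against 6.04% and 3.24% in proliferating 2 and proliferating 1. Both libraries numbered 2 were above both numbered 1, by 2.42 percentage points on average (exact permutation p = 0.333, the smallest possible). By group the share was 0.68 points higher in neuron libraries, with overlapping values (exact permutation p = 0.667). ND6 overlaps the end of ND5 on the other strand, and the strand setting of the counting is not given in the sources used here.

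ND3 and ND4L, also subunits of complex I, lie inside the copied stretch and had almost no counts. ND3 had 3 and 2 counts in neuron 2 and neuron 1, against 1 and 0 in proliferating 2 and proliferating 1. ND4L had 7 and 1 counts in neuron 2 and neuron 1, against 0 in both proliferating libraries. Neither was tested.

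CYTB (14145 to 15288) and COX1 (5328 to 6872), the largest subunit of complex IV, had the smallest number differences of the tested genes that were higher. CYTB had 23079 and 10006 CPM in neuron 2 and proliferating 2, against 5333 and 5652 CPM in neuron 1 and proliferating 1. COX1 had 26792 and 17871 CPM in neuron 2 and proliferating 2, against 7225 and 8597 CPM in neuron 1 and proliferating 1. Both were 1.88 higher in the libraries numbered 2 (SE 0.68 each, edgeR adjusted p = 0.0252 for CYTB and 0.0241 for COX1). On log2(RPKM + 0.1) the differences were -0.03 for CYTB and -0.02 for COX1. CYTB lost its call in 7 of 14 other settings and COX1 in 6. Together the pair made up 34.2% and 49.7% of the mRNA counts in neuron 2 and neuron 1, against 26.2% and 60.6% in proliferating 2 and proliferating 1. This share does not depend on rRNA. Number 2 minus number 1 it differed by -24.9 percentage points, and the numbers did not overlap (exact permutation p = 0.333, the smallest possible).

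**Figure D3:**
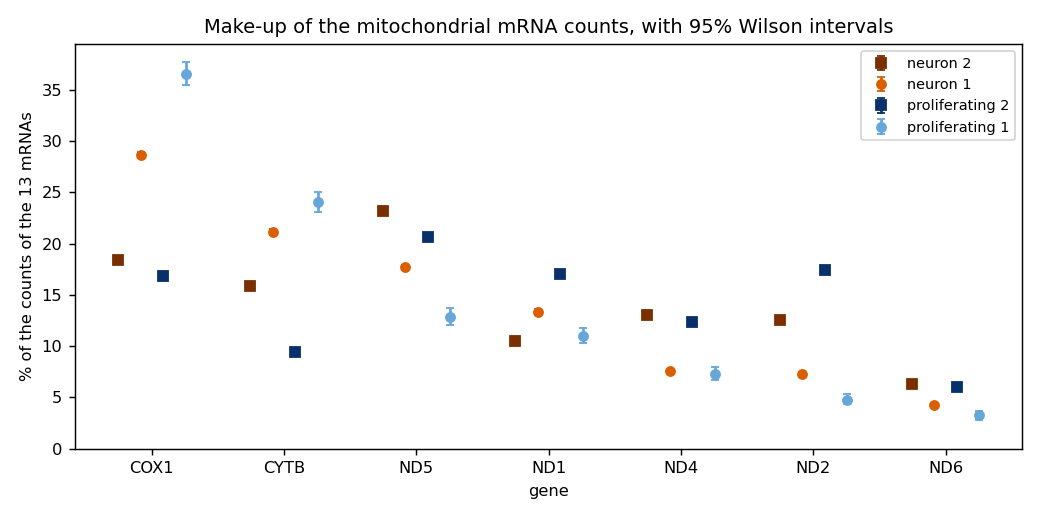
Percent of the counts of the 13 mRNAs held by each of the 7 well-counted mRNAs, with 95% Wilson intervals; squares are libraries numbered 2 and circles libraries numbered 1, brown and orange for neuron, dark and light blue for proliferating. COX1 and CYTB took a smaller share in both libraries numbered 2, and ND2, ND4, ND5 and ND6 a larger one, while ND1 ran from 10.5% in neuron 2 to 17.1% in proliferating 2.

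The other subunits of complex IV and of ATP synthase lie in the copied stretch. COX2 had 74 and 28 counts in neuron 2 and neuron 1, against 81 and 6 in proliferating 2 and proliferating 1. It was 3.76 higher on the log2 scale in the libraries numbered 2 (SE 0.71). ATP6, the proton channel subunit of ATP synthase, had 45 and 10 counts in neuron 2 and neuron 1, against 51 and 3 in proliferating 2 and proliferating 1, and was 4.40 higher (SE 0.83). COX3 had 15 and 17 counts in neuron 2 and neuron 1, against 22 and 3 in proliferating 2 and proliferating 1. It was 2.48 higher (SE 0.87, edgeR adjusted p = 0.0199), and lost its call in 8 of 14 other settings, DESeq2 among them. ATP8 had 7 and 1 counts in neuron 2 and neuron 1, against 2 and 0 in proliferating 2 and proliferating 1, and was not tested. The counts of COX2, ATP6 and COX3 may hold reads of either genome, since their copies are identical over the aligned bases. ATP6 and COX3 passed the filter on low counts only through the libraries numbered 2, so their calls are no support for a direction.

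Among the 7 mRNAs with at least 100 counts in every library, the number difference ran with base composition. The Spearman correlation with GC content was -0.89 in the neuron pair and -0.86 in the proliferating pair, given as a description over 7 genes that share libraries. Over the 10 tested mRNAs it was -0.64 in the neuron pair and -0.94 in the proliferating pair. Over all 19 tested genes it was -0.52 and -0.71, and over the 9 tested tRNAs -0.30 in both pairs. Of the 19 genes, 9, ATP6 and COX3 among them, passed the filter on low counts only through the libraries numbered 2. TrnC passed only through those numbered 1. The values over these 3 wider sets are thus no support for a relation with GC content. COX1 and CYTB, with the smallest differences, had the highest GC contents, 39.9% and 39.1%. ND6, ND4 and ND2 had 34.1%, 35.6% and 35.7%. The range of GC content was narrow, and its part in the differences was not tested.

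Per unit of length, the same 7 mRNAs took ranks 1 to 7 in every library, and the 6 mRNAs of the copied stretch took the ranks below. Within the 7 the order differed between libraries, also between those with the same number. In the authors' deposited RPKM, CYTB was first in neuron 2 at 1490, with COX1 at rank 5 and 1280, while in proliferating 2 ND1 was first at 354 RPKM and CYTB at rank 7 and 163. In neuron 1 COX1 and CYTB were first and second, at 553 and 551 RPKM, as they were in proliferating 1, at 516 and 458. The mean ranks over the libraries lay between 3.0 for COX1 and for CYTB and 6.5 for ND4, so no order within the 7 held across them. The counts of the 7 mRNAs and of ATP8 were also divided by each gene's number of 50-base windows with no nuclear match. This alternative was added after the data were seen. COX2, ATP6, COX3, ND3 and ND4L had almost no such windows and were not ranked. Among the ranked genes COX1 had a mean rank of 1.5 and ND4 of 2.0. In that count reads from the copied parts of COX1 and ND4 are taken as lost, which was not tested.

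The tRNAs were sparsely counted, and they too differed by number. The 22 tRNA genes summed to 997 and 523 counts in neuron 2 and neuron 1, against 781 and 32 in proliferating 2 and proliferating 1. That was 0.161% of the counts outside rRNA in neuron 2 (95% Wilson interval 0.152 to 0.172) and 0.0161% in neuron 1 (0.0148 to 0.0176), against 0.127% in proliferating 2 (0.119 to 0.136) and 0.0109% in proliferating 1 (0.00776 to 0.0155). On the log2 scale the share was 3.43 higher in the libraries numbered 2, at 3.32 in the neuron pair and 3.54 in the proliferating pair, and 0.45 higher in neuron than in proliferating libraries (exact permutation p = 0.333 and p = 0.667). Of all counts with rRNA included, the number difference in log2 share was 1.93 and the group difference 1.62, and with only mt-Rnr1, mt-Rnr2 and Rn18s-rs5 set aside they were 2.36 and 1.38. The tRNAs made up 1.09% and 0.635% of the counts of the 35 genes in neuron 2 and neuron 1, against 1.18% and 0.463% in proliferating 2 and proliferating 1. The ratio of tRNA to mRNA counts, which is free of the denominator, was 1.08 higher on the log2 scale in the libraries numbered 2, without overlap (exact permutation p = 0.333), and 0.17 higher in neuron libraries, with overlap (p = 1). A tRNA is short and modified, and how many of these counts are mature tRNA rather than uncut precursor cannot be told from counts per gene.

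The 4 tRNA genes with the largest or most unlike differences are shown first, and their sequences are given as DNA letters of the gene's own strand, 5′ to 3′, from GENCODE M21 on mm10, with the anticodon in capitals. They are TrnE (glutamate, chrM:14071-14139, minus strand), TrnT (threonine, chrM:15289-15355, plus strand), TrnP (proline, chrM:15356-15422, minus strand) and TrnC (cysteine, chrM:5192-5257, minus strand). The first 3 lie on either side of CYTB, and none of the 4 had a 50-base window in a nuclear transcript.
TrnE: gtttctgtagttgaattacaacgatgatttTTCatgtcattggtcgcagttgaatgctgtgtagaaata
TrnT: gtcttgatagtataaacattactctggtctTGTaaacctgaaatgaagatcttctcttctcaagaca
TrnP: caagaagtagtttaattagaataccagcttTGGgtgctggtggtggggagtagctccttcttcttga
TrnC: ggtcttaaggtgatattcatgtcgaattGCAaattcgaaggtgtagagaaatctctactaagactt

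TrnE had 550 and 398 counts in neuron 2 and proliferating 2, against 47 and 2 in neuron 1 and proliferating 1. In CPM these were 890.2 and 648 in neuron 2 and proliferating 2, against 14.5 and 6.84 in neuron 1 and proliferating 1, where the last value is below the limit that a count of 0 allows. It was 6.58 higher on the log2 scale in the libraries numbered 2 (SE 0.78, edgeR adjusted p = 5.99e-11), the largest rise of the 19 genes, at 6.34 in the neuron pair and 6.50 in the proliferating pair. It made up 55.2% and 8.99% of the tRNA counts in neuron 2 and neuron 1, against 51.0% and 6.25% in proliferating 2 and proliferating 1. TrnE abuts ND6 on the same strand, at its 5′ side. For every 100 counts of ND6 there were 9.63 and 1.33 counts of TrnE in neuron 2 and neuron 1, against 10.1 and 0.897 in proliferating 2 and proliferating 1, so the pair of neighbours did not keep 1 ratio across numbers.

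TrnT had 133 and 80 counts in neuron 2 and proliferating 2, against 13 and 1 in neuron 1 and proliferating 1. It was 6.11 higher on the log2 scale in the libraries numbered 2 (SE 0.83, edgeR adjusted p = 6.22e-09). TrnP, which abuts TrnT on the other strand, had 42 and 86 counts in neuron 2 and proliferating 2, against 65 and 11 in neuron 1 and proliferating 1. Its difference was 2.24 (SE 0.65, edgeR adjusted p = 0.00483), the smallest of the tRNAs that were higher. TrnE, TrnT, TrnH and TrnN kept their calls in each other setting in which they were run. All of them passed the filter on low counts only through the libraries numbered 2, so these calls are no support for a direction.

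TrnC went the other way. It had 0 counts in neuron 2 and proliferating 2, against 130 and 12 in neuron 1 and proliferating 1. At 0 counts in neuron 2, against 40.1 CPM in neuron 1, it was at least 8.26-fold lower, and at 0 counts in proliferating 2, against 41.1 CPM in proliferating 1, at least 8.41-fold lower, with 3 counts per library as the limit. It was the 1 tested gene that was lower in the libraries numbered 2 (edgeR adjusted p = 1.47e-04). It passed the filter on low counts only through the libraries numbered 1, so this call is no support for a direction. TrnY (tyrosine), 2 bases away on the same strand, had 9 and 0 counts in neuron 2 and proliferating 2, against 11 and 0 in neuron 1 and proliferating 1, and was not tested. The next 2 genes on the other side were higher. Both passed the filter on low counts only through the libraries numbered 2, so their calls are no support for a direction. TrnN (asparagine) had 61 and 76 counts in neuron 2 and proliferating 2, against 35 and 2 in neuron 1 and proliferating 1, and was 3.95 higher (SE 0.73). TrnA (alanine) had 47 and 28 counts in neuron 2 and proliferating 2, against 26 and 0 in neuron 1 and proliferating 1, and was 4.17 higher (SE 0.85).

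The other tested tRNAs were those of the cluster between ND4 and ND5. They too passed the filter on low counts only through the libraries numbered 2, so their calls are no support for a direction. TrnH (histidine) had 84 and 74 counts in neuron 2 and proliferating 2, against 39 and 0 in neuron 1 and proliferating 1, and was 4.61 higher (SE 0.76). TrnS2 had 28 and 12 counts in neuron 2 and proliferating 2, against 7 and 1 in neuron 1 and proliferating 1, and was 4.43 higher (SE 1.05). TrnL2, the leucine tRNA that reads CUN codons, had 18 and 12 counts in neuron 2 and proliferating 2, against 6 and 0 in neuron 1 and proliferating 1, and was 4.64 higher (SE 1.13). Of the 22 tRNAs, 9 had both libraries numbered 2 above both numbered 1 in CPM, and 3, TrnC, TrnL1 and TrnM, had both below. Some of these rest on very few counts, such as TrnS1 among the 9, with 1 and 6 counts in neuron 2 and proliferating 2. The share of all genes with such an order was not counted, so these numbers are a description. In 77.0% of the 9009 tested genes the neuron pair and the proliferating pair differed in the same direction by number.

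**Figure D4:**
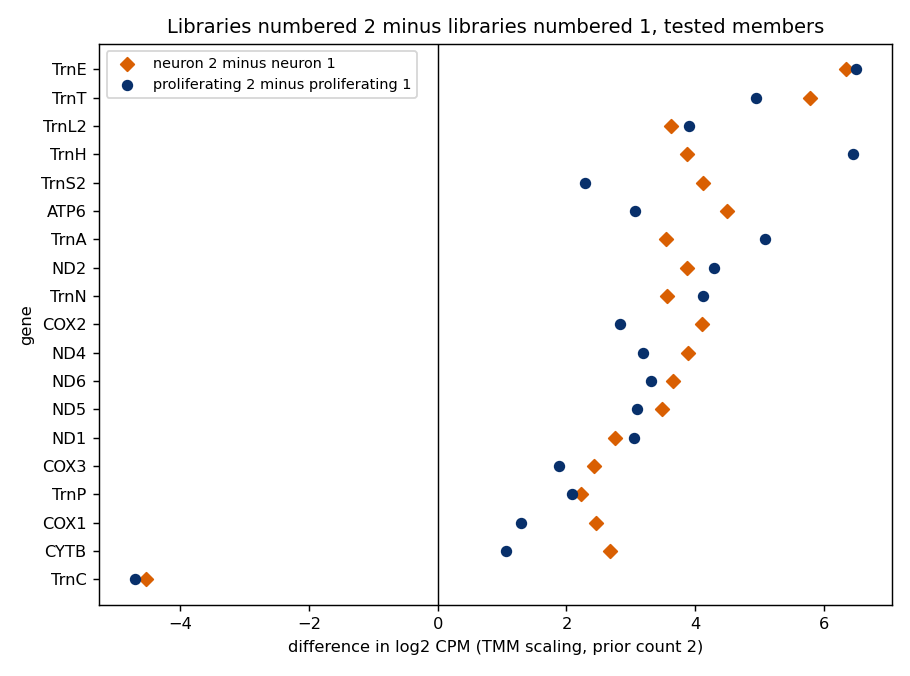
Difference in log2 CPM, libraries numbered 2 minus libraries numbered 1, for the 19 tested genes, sorted by the fitted difference; diamonds are the neuron pair and circles the proliferating pair. All genes but TrnC are to the right of 0 in both pairs, with TrnE and TrnT among the highest and COX1 and CYTB among the lowest; the positions of TrnC in both pairs and of TrnH, TrnA and TrnL2 in the proliferating pair depend on the prior count of 2, since 1 library of each of these pairs is at 0.

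Another 5 tRNAs reached 10 counts in some library and were not tested. TrnL1, the leucine tRNA that reads UUR codons, had 4 and 51 counts in neuron 2 and neuron 1, against 1 and 2 in proliferating 2 and proliferating 1. TrnM (methionine) had 2 and 44 counts in neuron 2 and neuron 1, against 2 and 1 in proliferating 2 and proliferating 1. TrnV (valine), between the rRNA genes, had 4 and 24 counts in neuron 2 and neuron 1, against 4 and 0 in proliferating 2 and proliferating 1. TrnW (tryptophan) had 10 and 14 counts in neuron 2 and neuron 1, against 2 and 0 in proliferating 2 and proliferating 1. TrnY, given above, was the fifth. For most of them the counts outside neuron 1 were too few to place a level. The other 8 tRNAs had from 0 to 9 counts in a library, and TrnF, TrnD, TrnK, TrnG and TrnR were at 0 in all 4.

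**Figure D5:**
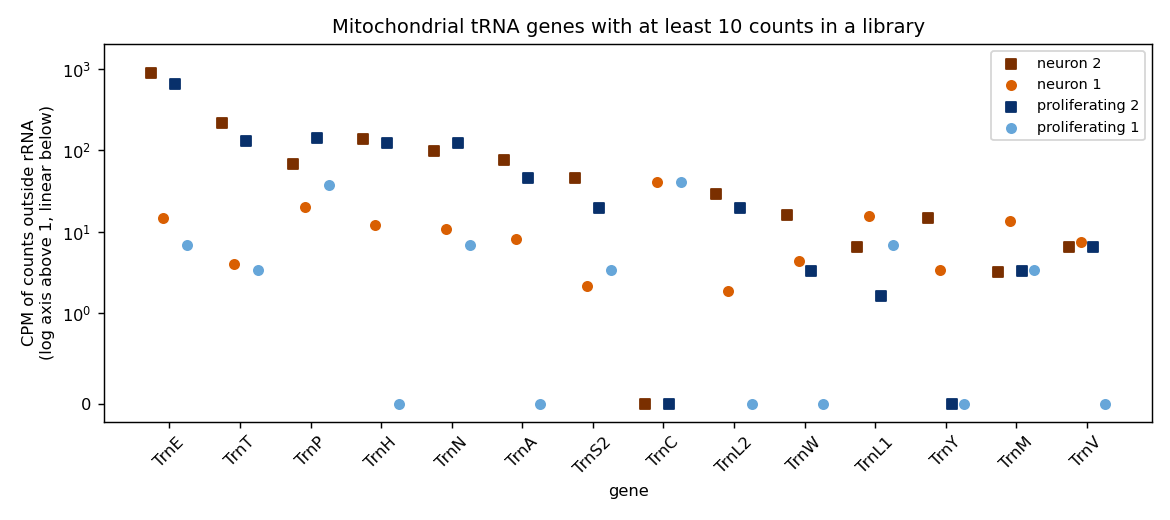
CPM of counts outside rRNA, on an axis that is logarithmic above 1 and linear below, for the 14 tRNA genes with at least 10 counts in some library; squares are libraries numbered 2 and circles libraries numbered 1, brown and orange for neuron, dark and light blue for proliferating. TrnE reaches 890.2 CPM in neuron 2 and 648 in proliferating 2, and TrnC is at 0 in both of these libraries.

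By strand, the 8 light-strand tRNAs held 71.3% and 60.4% of the tRNA counts in neuron 2 and neuron 1, against 76.1% and 84.4% in proliferating 2 and proliferating 1. The share was lower in both neuron libraries, with a mean difference of -14.3 percentage points, neuron minus proliferating (exact permutation p = 0.333, the smallest possible), and the value of proliferating 1 rests on 32 counts (95% Wilson interval 68.2 to 93.1). The difference was -8.90 points without neuron 1 and -19.8 without neuron 2. Between numbers the share overlapped (exact permutation p = 1). Its makeup changed: without TrnE the light-strand share was 36.02% and 56.5% in neuron 2 and neuron 1, against 51.2% and 83.3% in proliferating 2 and proliferating 1.

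The nuclear genes that make and process mitochondrial RNA were counted from lists. In the test of group 0 members of any of these lists were called. That test called 0 of all 9009 tested genes, so the 0 says nothing particular about the lists. Of the 9 tested genes of mitochondrial transcription and replication, 2 were higher and 1 lower in the libraries numbered 2, beside 12.7% higher and 20.3% lower over all genes. Tfam, which packages mitochondrial DNA and starts its transcription, had 90.6 and 120.4 CPM in neuron 2 and proliferating 2, against 50.6 and 27.4 CPM in neuron 1 and proliferating 1, and was 1.82 higher on the log2 scale (SE 0.64). Mterf3, of the mitochondrial transcription termination factor family, was 2.14 higher (SE 0.72). Polrmt, the mitochondrial RNA polymerase, had 3 and 1 counts in neuron 2 and proliferating 2, against 157 and 7 in neuron 1 and proliferating 1, with a log2 fold change of -3.02 (SE 1.00).

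Of 24 tested genes of mitochondrial RNA processing and stability, 3 were higher and 4 lower, beside 12.7% higher and 20.3% lower over all genes. The same shares over all genes stand beside each list count that follows, markers included. No list was tested against these shares, so the genes named are a description. Trmt10c, a subunit of the enzyme that cuts at the 5′ end of mitochondrial tRNAs, had 80.9 and 71.6 CPM in neuron 2 and proliferating 2, against 29.6 and 13.7 CPM in neuron 1 and proliferating 1, a log2 fold change of 2.25 (SE 0.70). Slirp, a partner of Lrpprc in mRNA stability, was 2.37 higher (SE 0.72), and Pnpt1, an RNA-degrading enzyme, was 1.95 higher (SE 0.65). Fastk, a regulator of ND6 mRNA, had 1 and 0 counts in neuron 2 and proliferating 2, against 160 and 9 in neuron 1 and proliferating 1. Ptcd1 had no counts in either library numbered 2, against 77 and 7 in neuron 1 and proliferating 1, and Tbrg4 and Dhx30 were also lower, at -2.79 (SE 0.74) and -2.25 (SE 0.66). Of 14 tRNA modification genes Trnt1, which adds the CCA end, was higher at 2.03 (SE 0.68) and Pus1 lower at -2.77 (SE 1.03). Of 15 mitochondrial tRNA synthetases 0 were higher and Vars2 and Sars2 were lower, with 0 to 2 counts in the libraries numbered 2. Of 8 regulators of mitochondrial biogenesis 0 were higher and Esrra, a nuclear receptor, and Pprc1, a coactivator, were lower, Pprc1 at -1.91 (SE 0.66). The median log2 fold changes of these 5 lists were 1.13, 0.52, 0.35, 0.43 and 0.66 in the order given, beside 0.10 over all tested genes. Among the markers, 4 of 6 tested genes of dividing cells were higher in the libraries numbered 2, with Cenpf, Bub1 and Mki67 at 2.18, 1.93 and 1.75. Of 5 tested neuron markers only Tubb3 was called, lower at -3.57, while the other 4 lay between 0.21 for Dcx and 1.66 for Snap25. Of 4 tested glia markers only Gfap was called, lower at -2.77, with Olig1 at -1.45, Olig2 at -0.20 and Aqp4 at 0.28. None of the 4 tested progenitor markers was called, with Vim at 0.84 and Nes at 0.03.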

How the data were processed

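RNA-seq was made from DNase-treated, rRNA-depleted total RNA of iMOP cells, as 4 libraries made with a stranded kit, per the labels' protocols. The submitters' processing notes name HISAT2, SAMtools, featureCounts, DESeq2 and mm10. Versions, annotation, strand setting and the treatment of reads with several matches are not given in the sources used here. The authors deposited raw counts per gene and, separately, RPKM values, whose totals include rRNA. In all 30 mitochondrial genes with counts, counts and RPKM gave the annotated gene length (relative tolerance 0.001).

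Genes were matched to GENCODE M21, and 7 rRNA and rRNA-like rows were set aside before scaling and filtering, which left 9009 genes to test (11525 with those rows kept). The main test was the quasi-likelihood test of edgeR 4.0.16 in R 4.3.3, with TMM scaling, filterByExpr and Benjamini-Hochberg adjustment over all tested genes at a threshold of 0.05. Group alone was the model for neuron over proliferating, and group with replicate number the model for number 2 over number 1. The second model leaves 1 residual degree of freedom, so its p-values rest largely on spread estimated across genes. Log2 CPM used a prior count of 2. Shares were compared with exact two-sided permutation tests. Alternatives were DESeq2 1.42.0, limma 3.58.1 with voom or on log2(RPKM + 0.1) and log2(RPKM + 1), other scalings, no filter, other denominators and each library left out. Nuclear copies were found with BLAST 2.17.0 and by exact windows of 50 bases (36 and 75 as added alternatives).

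All 13 mRNAs and every tRNA with at least 10 counts in some library are named. From each other list, up to 3 called genes with the largest change are named, or the 2 with the highest level where none was called. Pnpt1, Trmt10c, Slirp, Dhx30, Pcna, Rbfox3, TrnF, TrnQ, TrnS1 and the uncalled neuron and glia markers were named after their values were seen. The members and lists were chosen with earlier results of these data known.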

Additional observations from a re-analysis of the deposited data

How the results depend on the processing

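In the comparison of neuron with proliferating libraries, 0 mitochondrial RNAs were called under every setting run. With the replicate block 87 of all genes were called, against 0 with group alone, and again 0 of the 19 mitochondrial RNAs; the numbers are not known to pair the libraries, although the deviations of neuron 1 and proliferating 1 from their group means correlated across genes at r = 0.74. Leaving out 1 library at a time moved the log2 difference of the mRNA share from -0.99 to 1.54, of the tRNA share from -1.32 to 2.22 and of the tRNA to mRNA ratio from -0.51 to 0.85. It moved the difference, in percentage points, of the ND6 share of mRNA from -0.72 to 2.08, of the CYTB and COX1 share from -18.6 to 15.8 and of the TrnE share from -19.6 to 26.6. The log2 fold changes ran from -2.52 to 0.55 for TrnP, from -0.88 to 1.79 for CYTB and from -2.79 to 3.14 for TrnS2. TrnP was at 0.19 on log2(RPKM + 0.1) and on log2(RPKM + 1), and TrnS2 at -2.28 with voom.

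Between numbers, leaving out 1 library gave 6 to 17 mitochondrial RNAs higher, 0 to 1 lower and 517 to 2934 genes called in all. These fits had number alone in the model, since 3 libraries leave no residual degree of freedom for both terms. The light-strand share of tRNA moved from -10.7 to 13.3 points. Over all 4 libraries that model gave 16 higher and 1 lower, beside 646 higher and 1587 lower of all 9009 tested genes. On both RPKM scales 9 were higher and 1 lower, and 9 of 19 calls were lost, 2 of them, CYTB and COX1, with a change of sign. Of all 9009 genes, 47 were higher and 4338 lower on log2(RPKM + 0.1), and 56 higher and 4577 lower on log2(RPKM + 1). CYTB was at -0.02712 and COX1 at -0.02278 on log2(RPKM + 0.1), and at -0.02531 and -0.0217 on log2(RPKM + 1). Genes called were 1804 with DESeq2, 1901 without the filter and 4633 on log2(RPKM + 1). RPKM totals include rRNA, and the cause of these changes was not tested. Depth limits the tRNAs and the mRNAs of the copied stretch, with 32 and 12 counts in proliferating 1.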
